A study of Homo sapiens with 6 samples.

Results

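GDF15, STC2, ADM2, INHBE and FGF21 encode secreted hormones that cells are known to make under stress, and their transcripts were followed here in CAL27 cells given metformin or vehicle. The 5 genes were chosen by name, as hormones known to be put out by the integrated stress response. This choice was made with earlier results of these data known. The genes were found among the 58243 genes of the deposited files by their Ensembl identifiers and GENCODE 29 symbols. CAL27 is an established epithelial line grown from a tongue squamous cell carcinoma. One group received 30 mM metformin, a glucose-lowering biguanide drug, and the other the vehicle, phosphate-buffered saline (PBS), each for 48 h. From each group 3 RNA libraries were sequenced, to an estimated 7810000 to 8820000 fragments, within bounds set by the method of estimation. Nothing in the labels says whether replicate libraries stem from separate cultures, and the p-values therefore reflect library-to-library spread that could be technical only.

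In the integrated stress response, kinases phosphorylate the initiation factor eIF2, most translation slows, and translation of the transcription factor ATF4 rises. ATF4 and its partners, among them CHOP (DDIT3), then raise genes for amino acid supply and for several secreted hormones. GDF15 is a distant TGF-beta family member that acts on the hindbrain receptor GFRAL and lowers appetite, and its blood level is known to be raised in people taking metformin. FGF21 is a metabolic hormone made mainly by liver. STC2 is a glycoprotein that inhibits the protease PAPPA, which otherwise frees insulin-like growth factors. ADM2 is a peptide of the calcitonin family, and INHBE encodes the subunit of activin E, best known from liver.

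Metformin-treated cells held more transcript of GDF15, STC2, ADM2 and INHBE in every library. The summed level of all 5 hormones was 294.1, 314.0 and 309.6 FPKM in metformin libraries, against 34.5, 31.5 and 31.5 FPKM in PBS libraries. FPKM counts fragments relative to transcript length and library depth, so that levels of different genes can be set side by side. Of the 5 hormones, 4 reached the level filter of a mean of 1 FPKM over the 6 libraries, and all 4 were higher by limma with Benjamini-Hochberg adjustment over the 13437 genes past the filter, at an adjusted p below 0.05. That call was common here: 56.2% of tested genes passed in either direction and 31.0% were higher. ADM2 and INHBE reached the filter through their metformin libraries alone and FGF21 did not reach it, so the count of 4 is partly set by the filter. An adjusted p below 0.05 together with a rise of at least 1 on the scale of log2(FPKM + 1), on which all changes are given, was found in the same 4 hormones and in 6.51% of tested genes. All 5 had every metformin library above every PBS library, as had 35.7% of tested genes. These are bulk libraries, in which more cells making a transcript and more transcript per cell cannot be told apart.

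GDF15 (ENSG00000130513.6, chromosome 19, 18374731 to 18389176, plus strand, GRCh38) was the most abundant of the 5. It had 210.6, 230.1 and 230.8 FPKM in the metformin libraries, against 18.2, 17.5 and 16.5 FPKM in the PBS libraries. The lowest metformin library thus lay far above the highest PBS library, and the coefficient of variation was 5.12% with metformin and 4.80% with PBS. The ratio of the group means was 12.8, and the log2 change was 3.61 (SE 0.06, 95% confidence interval 3.47 to 3.75, limma adjusted p = 9.13e-07). Only 5 of the 13437 tested genes had a larger rise, which placed GDF15 at rank 6. Ordered by FPKM among all genes of a library, GDF15 stood at position 81, 77 and 71 in the metformin libraries and at position 2349, 2477 and 2590 in the PBS libraries.

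STC2 (ENSG00000113739.10, chromosome 5, 173314713 to 173329503, minus strand) came next in abundance in both groups. Its level was 69.7, 69.7 and 65.8 FPKM with metformin and 15.3, 13.4 and 14.4 FPKM with PBS. The groups were well apart and the metformin libraries close together, with a coefficient of variation of 3.27%. The ratio of means was 4.77 and the log2 change 2.18 (SE 0.06, 95% confidence interval 2.03 to 2.33, limma adjusted p = 2.02e-06), rank 89 of the tested genes.

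ADM2 (ENSG00000128165.8, chromosome 22, 50481556 to 50486440, plus strand) had 9.71, 9.11 and 8.77 FPKM in metformin libraries and 0.863, 0.582 and 0.462 FPKM in PBS libraries. No PBS library reached 1 FPKM, so this gene passed the level filter through its metformin libraries. Its test and rank are therefore given as a description. The ratio of means was 14.5, close to that of GDF15, whereas the log2 change was 2.65 (SE 0.11, 95% confidence interval 2.39 to 2.91, limma adjusted p = 6.67e-06), rank 39. Adding 1 FPKM before the logarithm shrinks the change of genes with low levels. With 0.1 FPKM added instead, the change of ADM2 was 3.70, close to 3.68 for GDF15 on that scale.

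INHBE (ENSG00000139269.2, chromosome 12, 57452323 to 57459280, plus strand) had 3.95, 4.76 and 4.10 FPKM in metformin libraries, against 0.162, 0.0424 and 0.188 FPKM in PBS libraries. At the estimated depth, its PBS values, all above 0, correspond to 0.35 to 4.03 fragments per library and its metformin values to 33 to 97. These figures depend on which transcript length is assumed. Like ADM2, it passed the level filter through its metformin libraries, and its test and rank are given as a description. The ratio of means was 32.6, the highest of the 5, but it rests on a denominator of a few fragments. The log2 change was 2.22 (SE 0.11, 95% confidence interval 1.96 to 2.48, limma adjusted p = 1.31e-05), rank 83, and it was 4.30 with 0.1 FPKM added.

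FGF21 (ENSG00000105550.8, chromosome 19, 48755559 to 48758333, plus strand, coordinates of the next version of the identifier) was close to the limit of detection. It had 0.191, 0.355 and 0.134 FPKM in the metformin libraries and was listed at 0 in all 3 PBS libraries. At the estimated depth, the metformin values correspond to about 1 to 4 fragments per library. The groups did not overlap, and an exact two-sided permutation test of the 6 values gave p = 0.1, the smallest that 3 libraries against 3 allow. FGF21 lay below the level filter and is not counted among the tested genes. Fitted by limma with no filter, its log2 change of 0.29 (SE 0.07) had an adjusted p of 0.0279, a call resting on those few fragments. No fold is given, since the PBS value is a listed 0.

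**Figure D1:**
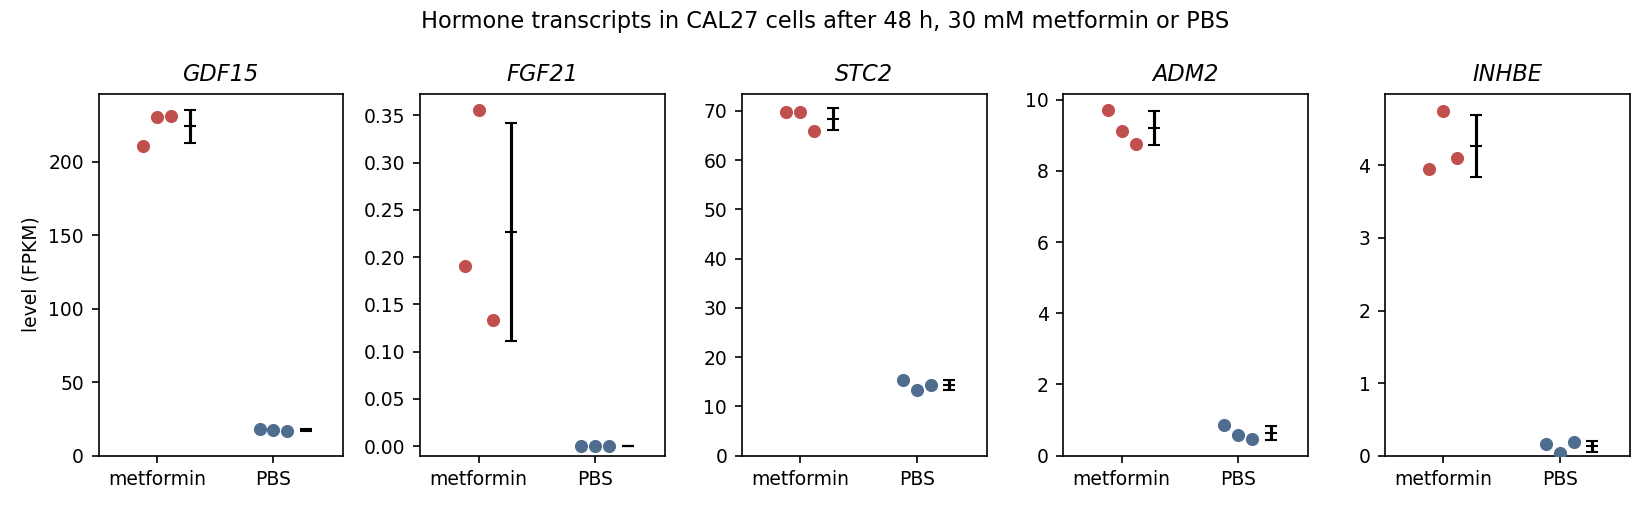
Level of each hormone transcript in FPKM (linear axes, a scale of its own for each gene) in the 3 metformin and 3 PBS libraries; points are libraries, and the bar beside them is the mean ± SD. All metformin points lie above all PBS points, and the axis of FGF21 ends below 0.4 FPKM while GDF15 reaches 230.8 FPKM.

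The order of the levels was the same in both groups, GDF15, STC2, ADM2, INHBE and FGF21 from highest to lowest, and no neighbours in that order overlapped in range. The distances differed. GDF15 was 3.02, 3.30 and 3.51 times as abundant as STC2 in the metformin libraries and 1.19, 1.31 and 1.15 times in the PBS libraries. GDF15 supplied 71.6% to 74.5% of the summed level of the 5 with metformin, against 52.4% to 55.6% with PBS, and STC2 supplied 21.3% to 23.7%, against 42.5% to 45.5%. ADM2 made up 2.83% to 3.30% with metformin and 1.47% to 2.50% with PBS. Their sum was 0.145% to 0.155% of all FPKM of a metformin library and 0.0151% to 0.0169% of a PBS library.

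**Figure D2:**
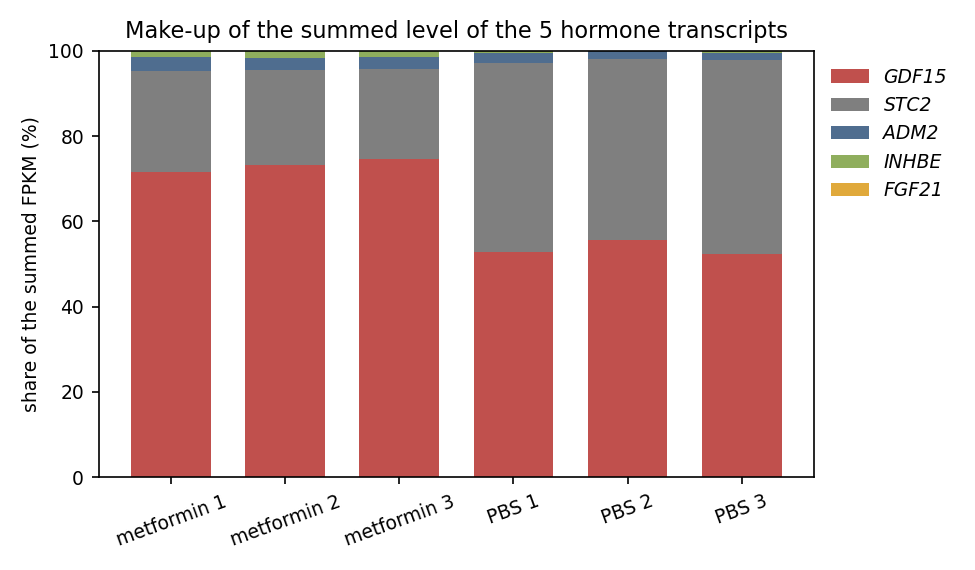
Share of each hormone in the summed FPKM of the 5 transcripts (y axis, percent) in each of the 6 libraries. The GDF15 part is larger and the STC2 part smaller in all 3 metformin libraries than in any PBS library; FGF21 is too small to be visible.

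**Figure D3:**
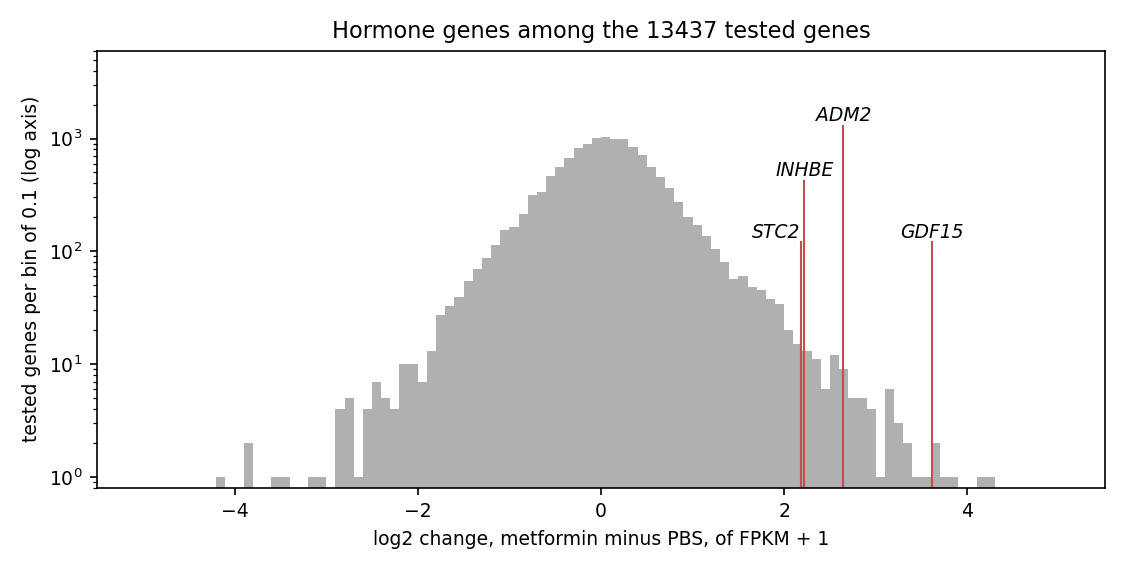
Number of tested genes (log axis) by log2 change of FPKM + 1, metformin minus PBS, in bins of 0.1, with lines at the 4 hormones past the level filter. The 4 lie in the upper tail, with GDF15 at 3.61 farthest out.

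The sequences just before the transcription start are shown because GDF15, STC2, ADM2 and INHBE were all higher with metformin. Motifs of stress-response factors were looked for there. RefSeq start regions (GRCh38.p14) matched 4 of the 5 genes by symbol, not INHBE. For GDF15 and STC2 the RefSeq start lies inside the GENCODE 29 gene rather than at its first base. The last 100 bases before each start are printed 5′ to 3′ on the strand of the gene, with searched motifs in capitals. They lie at chr19:18386058-18386157 (GDF15), chr5:173328415-173328514 (STC2), chr22:50481443-50481542 (ADM2) and chr19:48755424-48755523 (FGF21).
GDF15: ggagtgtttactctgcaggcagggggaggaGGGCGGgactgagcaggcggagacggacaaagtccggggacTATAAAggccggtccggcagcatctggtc
STC2: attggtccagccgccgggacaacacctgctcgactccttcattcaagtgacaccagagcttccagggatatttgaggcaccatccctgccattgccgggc
ADM2: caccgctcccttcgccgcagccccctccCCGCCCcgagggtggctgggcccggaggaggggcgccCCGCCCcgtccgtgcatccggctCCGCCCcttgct
FGF21: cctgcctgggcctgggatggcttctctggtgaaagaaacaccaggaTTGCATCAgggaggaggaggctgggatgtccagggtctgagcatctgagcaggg

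The windows of 250 bases before the start were searched on both strands. The core of the C/EBP-ATF composite element, TGATGNAA, through which ATF4 is known to act on amino acid response genes, occurred in FGF21 alone among the 4, at bases -54 to -47 on the opposite strand, where it reads TTGCATCA. It is held by 3.14% of the 35116 start regions in the table. Of the genes listed below, 3 of 15 intracellular stress-response targets and 3 of 23 regulators with a start region held it. A missing exact match in this window therefore cannot show that GDF15, STC2 or ADM2 lack such an element. The cyclic AMP response element TGACGTCA (1.65% of all start regions), the ER stress element (0.074%), the E-box CACGTG (6.34%) and the AP-1 site TGANTCA (6.57%) were found in none of the 4. TATAAA and GGGCGG were searched after the sequences had been seen. TATAAA (10.7% of all) lay at bases -29 to -24 of GDF15, and GGGCGG or its complement (42.6% of all) occurred in GDF15 and ADM2. The G and C content of the 250 bases was 78.8% in ADM2, 63.6% in STC2, 60.0% in FGF21 and 58.4% in GDF15, with a median of 58% over all start regions. Among tested genes with a start region of the same symbol, 84 of 186 with TGATGNAA in it were called higher with metformin (45.2%), against 2611 of 8722 without it (29.9%), a description of which genes hold these letters.

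The hormones lie on 4 chromosomes, and the nearest protein-coding genes on each side, looked up after the values of the hormones were known, did not share one pattern. PGPEP1, beside GDF15, had 2.40 ± 0.23 FPKM with metformin and 2.25 ± 0.25 FPKM with PBS (SD, n = 3 each, limma adjusted p = 0.598), and LRRC25 on its other side was listed at 0 throughout. BCAT2, beyond FGF21, had 5.96 ± 1.12 FPKM with metformin and 7.11 ± 0.16 FPKM with PBS and passed as lower only without metformin replicate 1 (limma adjusted p = 0.0115, against 0.131 with all libraries). FUT1, a fucosyltransferase gene that starts 168 bases from FGF21 on the other strand, was higher at 3.55 ± 0.33 FPKM with metformin, against 1.50 ± 0.32 FPKM with PBS (limma adjusted p = 0.00103). SBF1, beside ADM2, rose to 26.3 ± 1.12 FPKM, against 16.5 ± 0.60 FPKM with PBS, and MIOX, 343 bases beyond ADM2, had 0.312, 0.353 and 0.300 FPKM with metformin and was listed at 0 with PBS. NKX2-5, beside STC2, was below the filter. BOD1, on the other side of STC2, lies 278010 bases away and had 40.2 ± 8.52 FPKM with metformin, against 22.7 ± 3.57 FPKM with PBS.

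INHBE lies between INHBC, the gene of the related activin C subunit, and GLI1, a transcription factor of Hedgehog signalling. INHBC had 0.126, 0.288 and 0.176 FPKM in metformin libraries, GLI1 had 0.222, 0.194 and 0.278 FPKM, and both were listed at 0 in every PBS library. Neither reached the level filter. DDIT3 lies 57307 bases from INHBE on the same chromosome. No exon base of the 5 hormone genes is shared with another gene in GENCODE 29.

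Receptors for these hormones were measured because a secreted factor can also act on the cells that make it. Of 15 receptor and co-receptor genes, 6 reached the level filter, 3 were higher and 3 lower with metformin, 6 were below the filter and 3 were listed at 0 throughout. Over all tested genes, 31.0% were higher and 56.2% passed in either direction. GFRAL, the receptor of GDF15, was listed at 0 in every library, and its co-receptor RET did not exceed 0.0331 FPKM with metformin and 0.125 FPKM with PBS. KLB, the co-receptor that FGF21 requires, had at most 0.112 FPKM with metformin and 0.118 FPKM with PBS. Among FGF receptors, FGFR3 fell to 3.46 ± 0.26 FPKM with metformin, against 21.9 ± 0.26 FPKM with PBS (log2 change -2.36, SE 0.07, limma adjusted p = 2.02e-06). FGFR4 fell to 0.509 ± 0.123 FPKM, against 2.89 ± 0.24 FPKM with PBS. It passed the level filter through its PBS libraries alone, so its call, counted among those lower, is given as a description. FGFR2 rose to 5.49 ± 0.19 FPKM, against 3.14 ± 0.15 FPKM with PBS.

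CALCRL, the receptor shared by the adrenomedullin peptides, had 0.115 to 0.208 FPKM in metformin libraries and 0.405 to 0.503 FPKM in PBS libraries, below the filter. RAMP1, a partner that sets its ligand preference, fell to 12.0 ± 1.11 FPKM, against 25.2 ± 1.18 FPKM with PBS, and RAMP2 and RAMP3 were listed at 0. Of the activin receptors, ACVR1B rose to 6.48 ± 0.29 FPKM, against 2.91 ± 1.53 FPKM with PBS, where replicate 3 was the highest at 4.63 FPKM. ACVR1C, the receptor ALK7 linked to activin E, had 1.06, 2.36 and 2.87 FPKM with metformin and 0.855, 0.728 and 1.01 FPKM with PBS (limma adjusted p = 0.0431). The ACVR1C call was lost in 10 alternatives, among them without any 1 library other than metformin replicate 1 (adjusted p = 0.0711 to 0.12). ACVR1C passed the level filter mainly through its metformin libraries, and its test is given as a description.

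Relatives of the hormones did not move as a family. STC1, the other stanniocalcin gene, went the opposite way to STC2. It had 0, 0.0286 and 0 FPKM in metformin libraries and 5.95, 6.71 and 4.95 FPKM in PBS libraries (log2 change -2.76, SE 0.12, limma adjusted p = 7.97e-06). STC1 passed the level filter through its PBS libraries alone, so its test is given as a description. ADM, the nearest relative of ADM2 on the list, had 9.38, 5.53 and 5.27 FPKM with metformin and 5.82, 7.48 and 6.03 FPKM with PBS, overlapping groups that did not pass the test. Its log2 difference of 0.02 turned sign with median-of-ratios or quantile scaling, and without metformin replicate 1, PBS replicate 1 or PBS replicate 3. INHBB, the activin B subunit, rose to 8.39 ± 1.02 FPKM, against 1.41 ± 0.22 FPKM with PBS. INHBA, the activin A subunit, rose to 27.1 ± 3.31 FPKM, against 20.3 ± 1.23 FPKM with PBS. The INHBA call was lost without both libraries numbered 3 (limma adjusted p = 0.0511). INHA, below the filter, had 0.637, 0.863 and 0.849 FPKM with metformin and 0.151, 0.203 and 0.167 FPKM with PBS. INHBC, given above, was detected with metformin only. Each listed relative of INHBE among the inhibin and activin subunit genes thus had every metformin library above every PBS library. TGFB2 rose to 29.5 ± 0.08 FPKM, against 6.20 ± 1.24 FPKM with PBS, whereas TGFB1 fell to 4.53 ± 0.32 FPKM, against 7.30 ± 0.57 FPKM with PBS. BMP2 did not pass the test. FGF19, an intestinal hormone of the FGF21 subfamily, was below the filter with 1.16, 0.794 and 1.26 FPKM in metformin libraries and 0.0501, 0 and 0.112 FPKM in PBS libraries. In all, 3 of 18 relatives were higher and 2 lower, 2 did not pass, 7 were below the filter and 4 were listed at 0. The share of all tested genes that passed was 56.2% in either direction, with 31.0% higher.

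Proteins that mature the hormones or act beside them were measured by 14 genes, of which 8 reached the filter, 1 was higher and 4 were lower. Among all tested genes, 56.2% passed in either direction and 31.0% were higher. FURIN, a proprotein convertase of the TGF-beta family, had 21.2 ± 1.52 FPKM with metformin and 19.3 ± 0.67 FPKM with PBS (limma adjusted p = 0.154). The convertase gene PCSK5 fell to 0.488 ± 0.054 FPKM, against 2.03 ± 0.12 FPKM with PBS. It passed the level filter through its PBS libraries alone, so its call, counted among those lower, is given as a description. PAM, which amidates peptides such as adrenomedullin, fell to 8.25 ± 0.38 FPKM, against 10.0 ± 0.36 FPKM with PBS, a call lost without both libraries numbered 3 (adjusted p = 0.0655). IGFBP4, the insulin-like growth factor carrier cut by PAPPA, fell to 1.34 ± 0.41 FPKM, against 3.51 ± 0.13 FPKM with PBS, while PAPPA and PAPPA2 stayed at or below 0.0588 FPKM in every library. Of the activin antagonists, FSTL3 rose to 5.38 ± 1.13 FPKM, against 2.39 ± 0.37 FPKM with PBS. FST fell to 8.74 ± 0.88 FPKM, against 12.7 ± 2.09 FPKM with PBS, but its call was lost without metformin replicate 2, PBS replicate 1 or PBS replicate 3 (adjusted p = 0.0535 to 0.0557). FAP, the protease that cuts FGF21, was listed at 0.

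**Figure D4:**
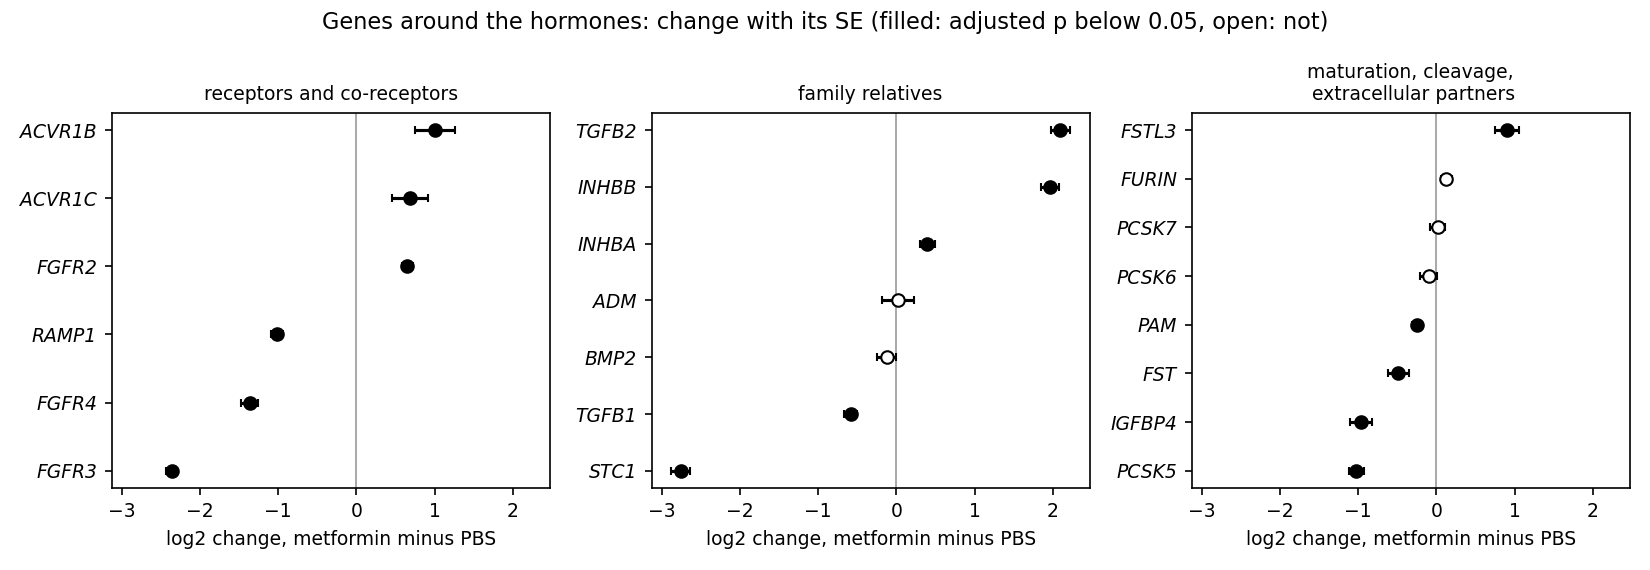
Log2 change of FPKM + 1, metformin minus PBS, with its SE, for the genes past the level filter in 3 lists: receptors, relatives, and maturation or extracellular partners; filled points passed limma's test at an adjusted p below 0.05. FGFR3 at -2.36 and STC1 at -2.76 lie farthest left, and TGFB2 at 2.10 farthest right.

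Of 26 listed regulators, among them factors that act before ATF4 and factors downstream of it, 24 reached the filter, 17 rising and 2 falling. The median of their log2 changes was 0.85, beside 0.06 over all tested genes, of which 31.0% were higher and 56.2% passed in either direction. All gene lists here were chosen with earlier results of these data known, so their counts and medians are a description. Whether any listed regulator acts on the hormones in these cells was not tested. The transcript of ATF4 itself rose to 216 ± 6.39 FPKM, against 131 ± 2.92 FPKM with PBS, a ratio of 1.65. Larger rises were found in factors known to lie downstream of it. DDIT3 had 134.9, 127.1 and 112.5 FPKM with metformin and 8.62, 8.52 and 8.52 FPKM with PBS, a ratio of 14.6 (limma adjusted p = 1.04e-06), although it shares exon bases with MARS and MBD6. TRIB3, a pseudokinase, had 102, 176 and 102 FPKM with metformin and 12.9, 13.5 and 13.0 FPKM with PBS, metformin replicate 2 being the highest by far. NUPR1, a stress-induced nuclear protein gene, rose to 14.8 ± 0.87 FPKM, against 1.15 ± 0.13 FPKM with PBS, and ATF3 to 34.3 ± 7.51 FPKM, against 4.88 ± 1.63 FPKM with PBS. PPP1R15A, the phosphatase subunit that reverses eIF2 phosphorylation, rose to 188 ± 2.87 FPKM, against 26.0 ± 1.13 FPKM with PBS.

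Of the eIF2 kinases, EIF2AK2 rose to 34.4 ± 1.03 FPKM, against 18.7 ± 1.15 FPKM with PBS. EIF2AK1, EIF2AK3 and EIF2AK4 did not pass, with ratios of means of at most 1.12, nor did OMA1 and DELE1, which relay mitochondrial stress to EIF2AK1. DELE1 had 7.42 ± 0.52 FPKM with metformin and 8.46 ± 0.66 FPKM with PBS, and passed as lower with median-of-ratios scaling (adjusted p = 0.0438). HIF1A, an oxygen-regulated transcription factor, fell to 48.4 ± 0.99 FPKM, against 147 ± 5.25 FPKM with PBS. MLXIPL, the carbohydrate-responsive factor that can raise FGF21 in liver, had 1.84 ± 0.07 FPKM with metformin and 0.311 ± 0.187 FPKM with PBS. It passed the level filter through its metformin libraries alone, so its call, counted among those rising, is given as a description. HIF1A, EIF2AK1, EIF2AK2, EIF2AK3, TGFB1, TGFB2, SLC7A11, SLC7A5, DDIT4, WARS1, VEGFA, ANGPTL4, IL6, CDH1, CD68, ZDHHC11, IL20RB and SBF1 also share exon bases with other genes, and with no stated strand setting their reads cannot be told apart there. These are transcript levels, and protein amounts or phosphorylation were not measured.

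**Figure D5:**
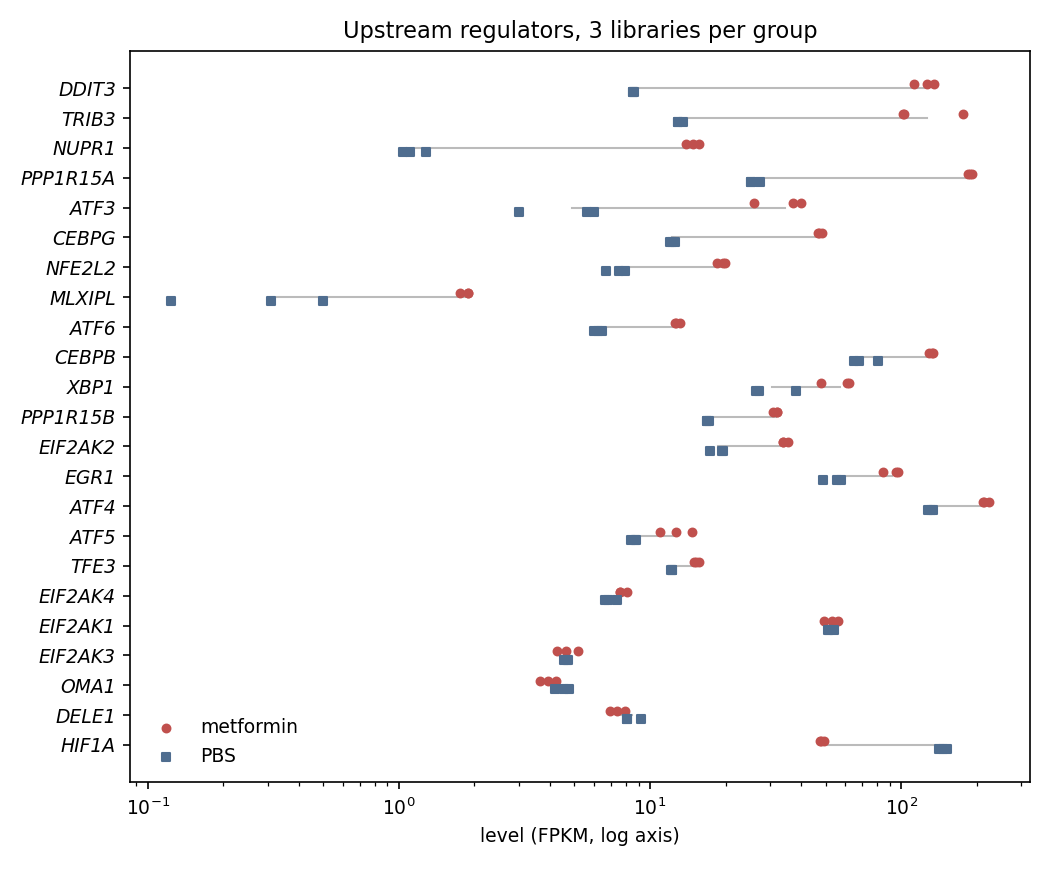
Levels (FPKM, log axis) of listed regulators past the filter in the metformin (circles) and PBS (squares) libraries. Genes are ordered by log2 change, with a grey line between the group means. DDIT3 at the top has a ratio of means of 14.6, while the points of EIF2AK1 and EIF2AK3 overlap and HIF1A at the bottom is lower with metformin.

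Stress-response genes whose products stay in the cell were higher in 14 of 18, lower in 0 and not past the test in 3, with 1 below the filter. The median of their log2 changes was 0.72, and 31.0% of all tested genes were higher. The 3 were SLC3A2, DDIT4 and SLC7A5. SLC3A2 passed as higher with a fixed sum per library, with quantile scaling and without metformin replicate 3 (adjusted p = 0.0394, 0.019 and 0.0499), and DDIT4 under the same 3 alternatives (0.034, 0.00564 and 0.0478). SLC7A5 passed as lower with median-of-ratios scaling (0.0201) and without PBS replicate 2 (0.0491), but as higher with quantile scaling (0.0135). SESN2, which restrains mTORC1 signalling, rose most, to 32.9 ± 1.50 FPKM, against 3.61 ± 0.28 FPKM with PBS. SLC7A11, the cystine transporter, had a ratio of means of 3.91, WARS1, a tryptophan tRNA synthetase, 2.99, ALDH1L2, a mitochondrial folate enzyme, 3.38, and CHAC1, a glutathione-degrading enzyme, 2.83. The ratios of means of ASNS, PHGDH and PSAT1, enzymes of asparagine and serine synthesis, lay between 1.52 and 1.95, below the 4.77 of STC2, the smallest of the 4 tested hormones. Other secreted factors rose widely too, with 13 of 18 higher, 2 lower and a median of 0.92. AREG, an epidermal growth factor receptor ligand, rose to 122 ± 7.95 FPKM, against 12.2 ± 1.20 FPKM with PBS, and IL6, an inflammatory cytokine, to 100.4 ± 5.51 FPKM, against 10.3 ± 0.56 FPKM with PBS. ANGPTL4, LCN2 and VEGFA had ratios of means of 8.04, 5.49 and 3.83, whereas the chemokine CXCL8 fell to 61.1 ± 12.5 FPKM, against 183 ± 7.79 FPKM with PBS.

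The protein-coding genes whose profile over the 6 libraries lay nearest to each hormone were found by the Euclidean distance of log2(FPKM + 1) values centred on the PBS mean. Among the nearest to GDF15 were BEX2 (0.34) and DDIT3 (0.34). Nearest to STC2 were ZDHHC11 (0.10), RUBCNL (0.15) and INHBE (0.19). ADM2 lay nearest to IL20RB (0.25), CDKN2B (0.26) and SPRR2A (0.32), and INHBE to FIBIN (0.12), STC2 (0.19) and IL11 (0.20). The neighbours changed with the amount added before the logarithm. With 0.1 FPKM added, GDF15 lay nearest to NUPR1 (0.30), DDIT3 (0.42) and ADM2 (0.51), ADM2 lay nearest to GDF15, and STC2 and INHBE were no longer neighbours. Of these pairs, that of GDF15 and DDIT3 was found on both scales. A small distance over 6 libraries in 2 groups means a change of like size and says nothing of shared control.

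The identity of the cells was checked by marker genes. KRT5, KRT14, KRT6A, KRT17, TP63, CDH1 and EPCAM were at 12.6 FPKM or more in every library, as fits the squamous epithelial label. Of these 7, 5 were lower and 2 higher, beside 56.2% of all tested genes passing in either direction. The call of KRT17 was lost without metformin replicate 1, PBS replicate 1 or PBS replicate 2 (adjusted p = 0.0549 to 0.0584) and with quantile scaling (0.124). The call of CDH1 as higher was lost with median-of-ratios scaling (0.0508). Their sum was 414 to 435 FPKM with metformin and 984 to 1043 FPKM with PBS, and its part in the hormone changes was not tested. The largest falls of the 7 were in the keratins KRT14 and KRT5. KRT14 fell to 12.9 ± 0.28 FPKM, against 246 ± 17.4 FPKM with PBS (log2 change -4.15). KRT5 fell to 52.45 ± 4.19 FPKM, against 355 ± 6.04 FPKM with PBS (log2 change -2.74). Of 6 hepatocyte markers, ALB, TTR, AFP and APOB were listed at 0 in every library and APOA1 in all but 1, and only SERPINA1 was present. The summed hepatocyte markers were 6.15 to 7.74 FPKM with metformin and 7.10 to 9.64 FPKM with PBS. Endothelial markers summed to 2.00 to 2.32 FPKM, against 5.93 to 6.87 FPKM with PBS, mostly CDH5 with KDR at 0. Immune markers summed to 4.93 to 6.10 FPKM, against 5.38 to 6.71 FPKM with PBS, but their members moved in opposite directions. CD14 fell to 0.942 ± 0.135 FPKM, against 3.71 ± 1.09 FPKM with PBS (limma adjusted p = 0.00133). It passed the level filter mainly through its PBS libraries, so its test is given as a description. CD68 rose to 3.33 ± 0.32 FPKM, against 2.15 ± 0.21 FPKM with PBS (limma adjusted p = 0.00611). CSF1R, below the filter, had 0.810 to 1.03 FPKM with metformin and 0.207 to 0.240 FPKM with PBS. Fibroblast markers summed to 2.49 to 2.74 FPKM, against 1.54 to 2.34 FPKM with PBS, mostly COL1A1 with DCN at 0, and adipocyte markers to at most 0.0994 FPKM in any library, with ADIPOQ, LEP and FABP4 at 0.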

How the data were processed

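Each library has a deposited table of FPKM by gene, as the authors computed them, per the file headers. Libraries were made with an mRNA sequencing kit, per the labels' protocols, and the genome build was GRCh38, per the submitters' processing notes. The aligner, quantifier, strand setting and annotation were not given in the sources used here. GENCODE 29 gave symbols to 57980 of 58243 genes, with identifier versions ignored. No counts were used. Depth (7810000 to 8820000 fragments) was estimated from the steps between low values of single-transcript genes, and fragments per gene from it.

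Genes averaging 1 FPKM or more (13437) were fitted as log2(FPKM + 1) with limma 3.58.1 in R 4.3.3 (intensity trend, group as the only term, two-sided). Adjustment was by Benjamini and Hochberg with a threshold of 0.05, and the fit was tested on simulated data. The hormones and gene lists were chosen with earlier results of these data known. By rule, the text names the hormones, up to 5 genes per list with the largest changes among those passing, and every receptor and relative past the filter. All other genes, the neighbouring genes among them, were chosen after their values were seen. For each tested hormone, up to 3 nearest profiles are named. Some results are not reported here. Promoters came from RefSeq (GRCh38.p14). The alternatives were other added amounts, filters and scalings, a replicate block, limma without trend or with a robust prior, protein-coding genes alone and libraries left out. Tables and figures were made with Python 3.11.15, pandas 2.3.3, NumPy 2.4.6, SciPy 1.17.1 and matplotlib 3.10.9.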

Additional observations from a re-analysis of the deposited data

How the results depend on the processing

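GDF15, STC2, ADM2 and INHBE stayed higher with metformin past limma's threshold in every alternative that tested them, with adjusted p-values of at most 0.000262, 0.00041, 0.000572 and 0.00102. ADM2 and INHBE could not be tested at a filter of 5 FPKM. Both passed the filter of 1 FPKM through their metformin libraries alone, so their calls are given as a description. Log2 changes ranged from 3.53 to 3.68 for GDF15 and 2.10 to 2.25 for STC2. They ranged from 2.52 to 3.88 for ADM2 and from 2.05 to 5.13 for INHBE, the highest with 0.01 FPKM added. The difference of FGF21 was 1.65 with 0.1 FPKM and 4.45 with 0.01 FPKM added, which follows from the listed zeros. At 0.29, limma called it with no level filter (adjusted p = 0.0279) or at a mean of at least 0.1 FPKM (adjusted p = 0.0458). Without 1 library, the changes were 3.57 to 3.65 (GDF15), 2.13 to 2.22 (STC2), 2.57 to 2.74 (ADM2), 2.15 to 2.26 (INHBE) and 0.216 to 0.345 (FGF21), and 6663 to 6886 genes passed, against 7549. At a mean of at least 5 FPKM 4738 of 7388 genes passed. With the replicate block, 7139 genes passed and the 4 calls were kept. Same-numbered libraries deviated from their group means with correlations of -0.000355, 0.0304 and -0.0105, so the numbers were not taken to pair them. Median-of-ratios scaling gave 3610 higher and 3863 lower genes, against 4169 and 3380. With a window of 100 bases the stress element still occurred in FGF21 alone and in 1.34% of all start regions.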
